A study of Mus musculus with 6 samples.

Results

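The genes described here encode nuclear subunits of the mitochondrial respiratory chain and of the ATP synthase. They were taken by gene symbol, as every probe set annotated to exactly 1 gene whose symbol starts with Ndufa, Ndufb, Ndufc, Ndufs, Ndufv, Uqcr, Cox4, Cox5, Cox6, Cox7, Cox8 or Atp5. The symbols gave 86 genes of 18193 on the array, read by 170 probe sets of 45101. Where a gene had several probe sets, the 1 with the highest mean over the arrays stood for it. The prefixes brought in 6 core and 28 accessory subunits of complex I, 8 assembly factors of complex I, 8 subunits of complex III, 17 of complex IV and 17 of the ATP synthase. Cox7a2l and Ndufa4l2, which share a prefix with subunits but have other roles, made up the rest.

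Messenger RNA was measured on Affymetrix arrays in undifferentiated mouse embryonic stem (ES) cells of 2 lines, with 3 arrays a line. The line D4, called heterozygous here, is Dicer +/-, and the line 27H (27H10 in the name of the series), called null, is Dicer -/-. Dicer is the enzyme that cuts precursors into microRNAs, and both lines carry at least 1 disrupted allele, so wild-type cells are not part of the comparison. There is 1 line for each genotype, so an effect of the genotype and a feature of the line cannot be told apart. Whether the replicate arrays stem from separate cultures is not stated, and each p-value covers only the spread between these arrays, which may be technical. All differences below are null minus heterozygous.

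The respiratory chain passes electrons from NADH through complex I, or from succinate through complex II, to coenzyme Q. Complex III hands them on to cytochrome c and complex IV to oxygen, and the protons pumped on the way drive the ATP synthase. Complexes I, III and IV and the ATP synthase are built from nuclear genes together with a few genes of mitochondrial DNA. Undifferentiated ES cells are known for making much of their ATP by glycolysis, with respiration rising on differentiation. Several complex IV subunits exist as a common form and as forms best known from heart, skeletal muscle, lung or testis.

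The authors' values are linear intensities in arbitrary units. The median intensity of all probe sets was 49.1 to 52.7 in the heterozygous arrays and 44.9 to 46.5 in the null arrays. The targeted gene could not serve as a check of the labels, since Dicer1 read 1098 ± 39.2 units (SD, n = 3) in the heterozygous line and 1197 ± 62.2 in the null line (log2 difference 0.12, limma adjusted p = 0.222), and where its probes lie relative to the deleted part is not given in the sources used here. Summed over 8 ES cell markers, the intensity was 100237 to 105182 in the heterozygous arrays and 93209 to 98355 in the null arrays. None of the 8 rose and 2 fell, Tdgf1 and Utf1, while with the arrays centred on their medians 2 rose and none fell. Before centring, 24.5% of all tested genes rose and 24.3% fell. The markers of other cell types are given further on.

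In the null line the respiratory chain genes moved in both directions, and nearly all by less than 2-fold. Core subunits of complex I and of complex III were higher, most complex I assembly factors were higher, and several small subunits of complexes III and IV and of the ATP synthase were lower, fewer of them when the arrays were centred on their medians. A gene is said here to have risen or fallen where its limma adjusted p, taken over all 12927 genes tested, was under 0.05. Of the 86 genes, 84 passed the filter on low intensity (at least 32 units in at least 3 arrays), and Ndufb4 and Cox8b did not. Of the 84, 32 rose and 23 fell, against 24.5% of all tested genes that rose and 24.3% that fell. That is 65.5% of the 84 against 48.8% of all tested genes. Among the 1229 genes whose mean log2 intensity was at least 12, the share was 54.8%, and among the 66 respiratory chain genes that bright it was 63.6%. The median log2 difference was 0.10 over the 84 and -0.01 over all genes.

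Changes of at least 2-fold were few. Of the 84, 1 rose by that much (Cox7b2) and 2 fell by it (Ndufa4l2 and Cox7c). The shares over all tested genes were 7.23% and 6.2%, 13.4% in either direction. Ndufa4l2 passed the filter only through the heterozygous arrays, where it is high. Cox7b2 passed it only with the help of the null arrays, where it is high. The 3 arrays of a line lay wholly above or wholly below those of the other for 61 of the 84 genes, 36 with the null arrays higher and 25 with them lower. Of all tested genes 57.2% were so placed, 28.3% with the null arrays higher and 28.9% with them lower.

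**Figure D1:**
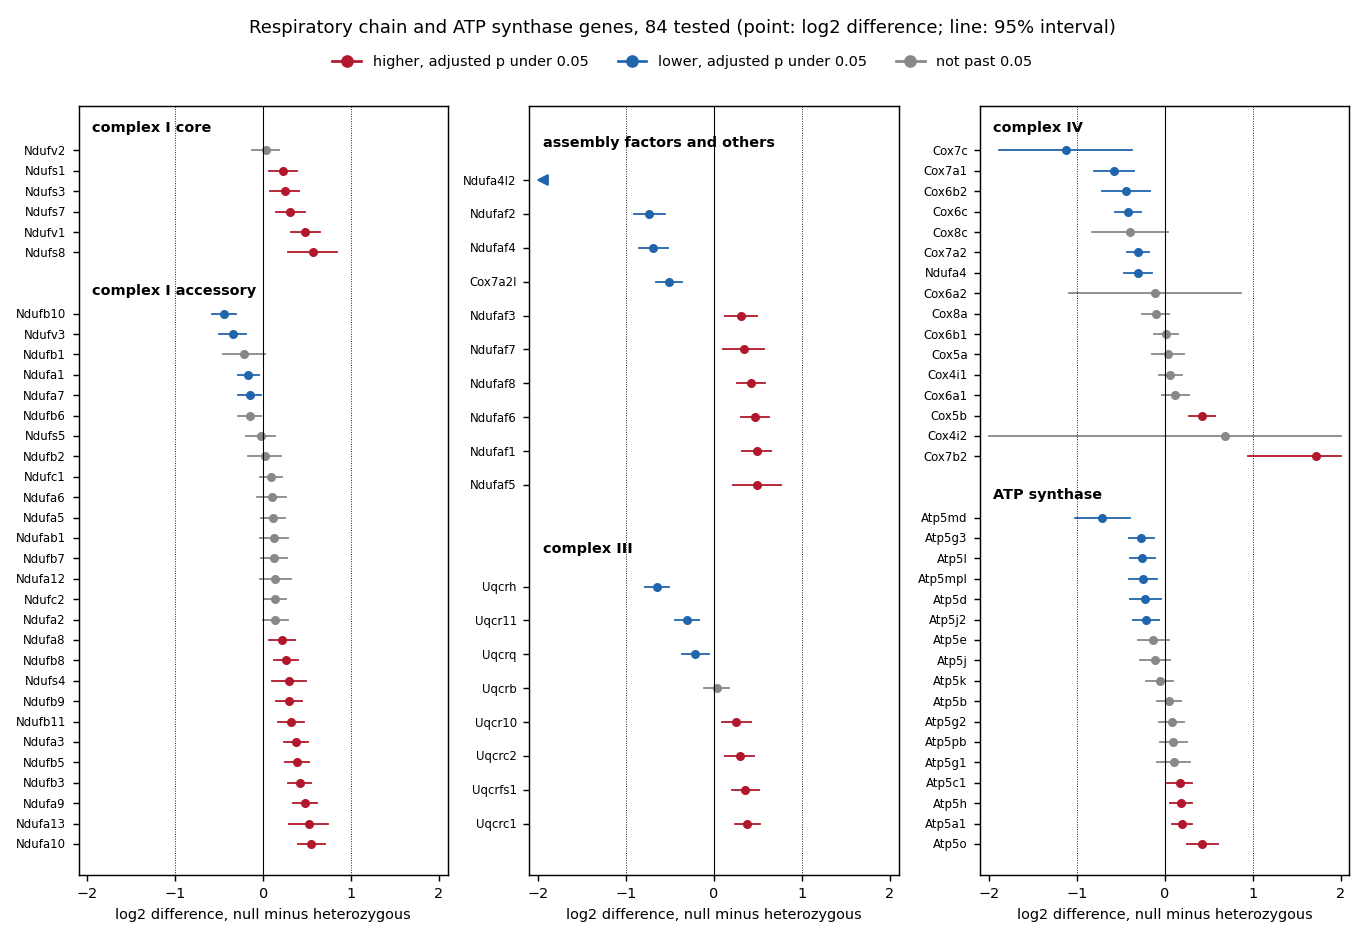
Log2 difference (null minus heterozygous, x axis) of the 84 tested genes, by group, with the 95% interval of limma as a line; red genes rose and blue genes fell at an adjusted p under 0.05. Dotted lines mark 2-fold. Ndufa4l2 lies at -3.23, beyond the axis, which also cuts the intervals of Cox7b2 and Cox4i2.

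The balance of rises and falls depended on how the arrays were scaled. With the log2 values of each array centred on their median, 47 of the 84 rose and 10 fell, and the median log2 difference of all genes moved from -0.01 to 0.14. Over all genes that setting gave 4187 rises and 2099 falls. Quantile normalization gave 33 rises and 23 falls, and cyclic loess 33 and 24. Of the 55 genes that rose or fell, 27 did so with the same sign in every one of 18 other settings that kept them, 18 higher and 9 lower. The 18 were Ndufs8, Ndufv1, Ndufa3, Ndufa9, Ndufa10, Ndufa13, Ndufb3, Ndufb5, Ndufb9, Ndufaf1, Ndufaf3, Ndufaf5, Ndufaf6, Uqcrc1, Uqcrfs1, Cox7b2, Atp5a1 and Atp5o. The 9 were Ndufb10, Ndufaf2, Ndufaf4, Cox7a2l, Uqcrh, Cox6c, Cox7a1, Atp5md and Ndufa4l2. Nothing is read from the place of Ndufa4l2 among them, since the filter decides whether it is tested at all, and 14 of the 18 settings kept it. Nor is anything read from the place of Cox7b2, which passed the filter only with the help of the null arrays.

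**Figure D2:**
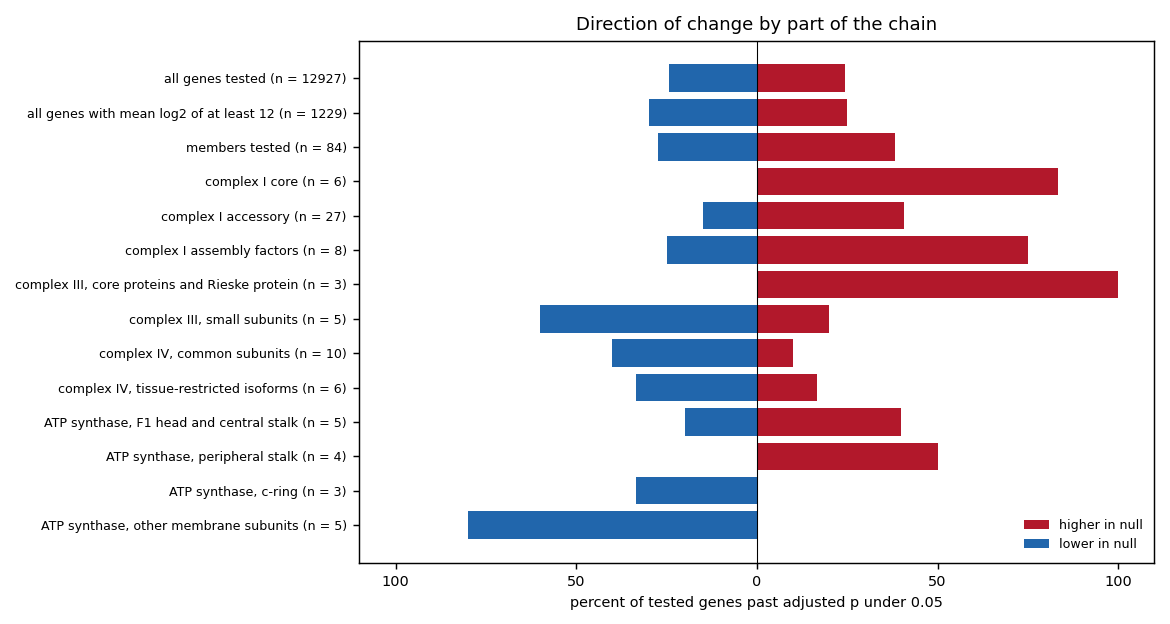
Percent of the tested genes of each group that rose (red, to the right) or fell (blue, to the left) in the null line at an adjusted p under 0.05, with the number of genes tested in brackets. The uppermost bars show all 12927 genes and the 1229 bright ones; the 6 complex I core genes hold no fall, and the 5 other membrane subunits of the ATP synthase hold no rise.

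The core subunits of complex I carry the flavin and the iron-sulfur clusters that electrons pass along, and 5 of the 6 measured rose, with none that fell and a median log2 difference of 0.28. The rises came to 3 without heterozygous replicate 3, without null replicate 1 or without an intensity trend in the variance prior. All 6 belong to the arm that reaches into the matrix. Ndufv1, the subunit that binds NADH and the flavin, read 6759, 6946 and 6392 units in the heterozygous arrays and 10000, 9661 and 8444 in the null arrays. Every null array was above every heterozygous one, and the mean went from 6699 ± 282 to 9368 ± 818 (SD, n = 3 each), 1.40-fold (log2 difference 0.48, limma adjusted p = 0.000236). Ndufs8, which holds a pair of the iron-sulfur clusters near the quinone site, read 7429, 8367 and 6365 units against 9110, 10689 and 13058. These arrays did not overlap either, although the null arrays were spread widely (10952 ± 1987 against 7387 ± 1002, 1.48-fold, log2 difference 0.56, adjusted p = 0.00316), and 5 of its 6 probe sets rose.

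Ndufs7, another iron-sulfur subunit, rose by a log2 difference of 0.31 (adjusted p = 0.00575), but its other probe set showed -0.02. Ndufs3 and Ndufs1, of which Ndufs1 is the largest subunit of the complex, rose by 0.24 and 0.22 on the log2 scale. Ndufv2, the brightest of the core genes, read 9308 ± 541 and 9491 ± 665 units, a log2 difference of 0.03 with a 95% interval from -0.13 to 0.18. Its other probe sets gave 0.35 and 0.22, with adjusted p of 0.00545 and 0.0389 over all probe sets.

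Accessory subunits surround the core and take no part in electron transfer. Of 27 tested, 11 rose and 4 fell, with a median log2 difference of 0.14. In the membrane arm 9 of 18 tested genes rose and 2 fell. In the matrix arm 2 rose and 2 fell among 8, 25% each way and near the 24.5% and 24.3% of all tested genes. With the arrays centred on their medians the counts were 12 and 1 in the membrane arm and 6 and 0 in the matrix arm, so the arms did not stand apart in that setting. Ndufab1, the acyl carrier protein found in both arms, had a log2 difference of 0.12 (adjusted p = 0.181). As a mean over its tested probe sets it was at -1.24. That mean takes in a dim probe set at 45.8, 49.3 and 57.5 units against 3.79, 1.19 and 6.27. This probe set passed the filter only through the heterozygous arrays, where it is high, so nothing is read from the mean. All 27 genes with centred arrays gave 19 rises and 1 fall, and the 4 falls came to 2 without heterozygous replicate 2 or 3 or null replicate 1.

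Ndufa10, a membrane arm subunit related to nucleoside kinases, read 6354, 6579 and 5847 units in the heterozygous arrays and 9256, 9623 and 8542 in the null arrays. The groups stood well apart (6260 ± 375 against 9140 ± 550, 1.46-fold, log2 difference 0.55, limma adjusted p = 6.06e-05). Ndufa13, also known as GRIM-19 from work on cell death, read 7540, 7397 and 6845 against 11558, 11248 and 8583. The third null array was lower than the others but still above all heterozygous arrays, and Ndufa13 rose 1.43-fold (log2 difference 0.52, adjusted p = 0.00141).

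Ndufa9, which sits where the arms of complex I meet, read 5313, 5579 and 5841 units against 7480, 7988 and 7738. The arrays of each line were close together, at 5578 ± 264 and 7735 ± 254, and the rise was 1.39-fold (log2 difference 0.47, adjusted p = 7.99e-05). Ndufb3, Ndufb5 and Ndufa3, small membrane arm subunits, rose by log2 differences of 0.41, 0.38 and 0.37. The rises of Ndufb11, Ndufb9, Ndufs4, Ndufb8 and Ndufa8 lay between 0.32 and 0.21. For Ndufs4 and Ndufb8 the sign turned in 1 and 2 of the 18 other settings. Each has a dim probe set with a negative log2 difference that did not pass the test. These dim probe sets passed the filter only with the help of the heterozygous arrays, where they are high, so nothing is read from their sign.

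The accessory genes that fell were Ndufb10, Ndufv3, Ndufa1 and Ndufa7. Ndufb10, a membrane arm subunit of the intermembrane space side, read 4964, 4902 and 4996 units in the heterozygous arrays and 3623, 3496 and 3785 in the null arrays. The heterozygous arrays were nearly equal (4954 ± 47.9), and all null arrays lay below them (3635 ± 145, 1.36-fold lower, log2 difference -0.45, adjusted p = 0.000105). Ndufv3 fell by 0.35 and Ndufa1 fell by 0.17 on the log2 scale. Ndufa7, the brightest of the accessory genes, went from 11760 ± 330 to 10564 ± 477 units (log2 difference -0.16, adjusted p = 0.0483). It passed the test in 7 of the 17 other settings that kept it. Ndufb4 did not pass the filter, with 17.9, 14.3 and 23.9 units against 10.9, 4.53 and 1.54.

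**Figure D3:**
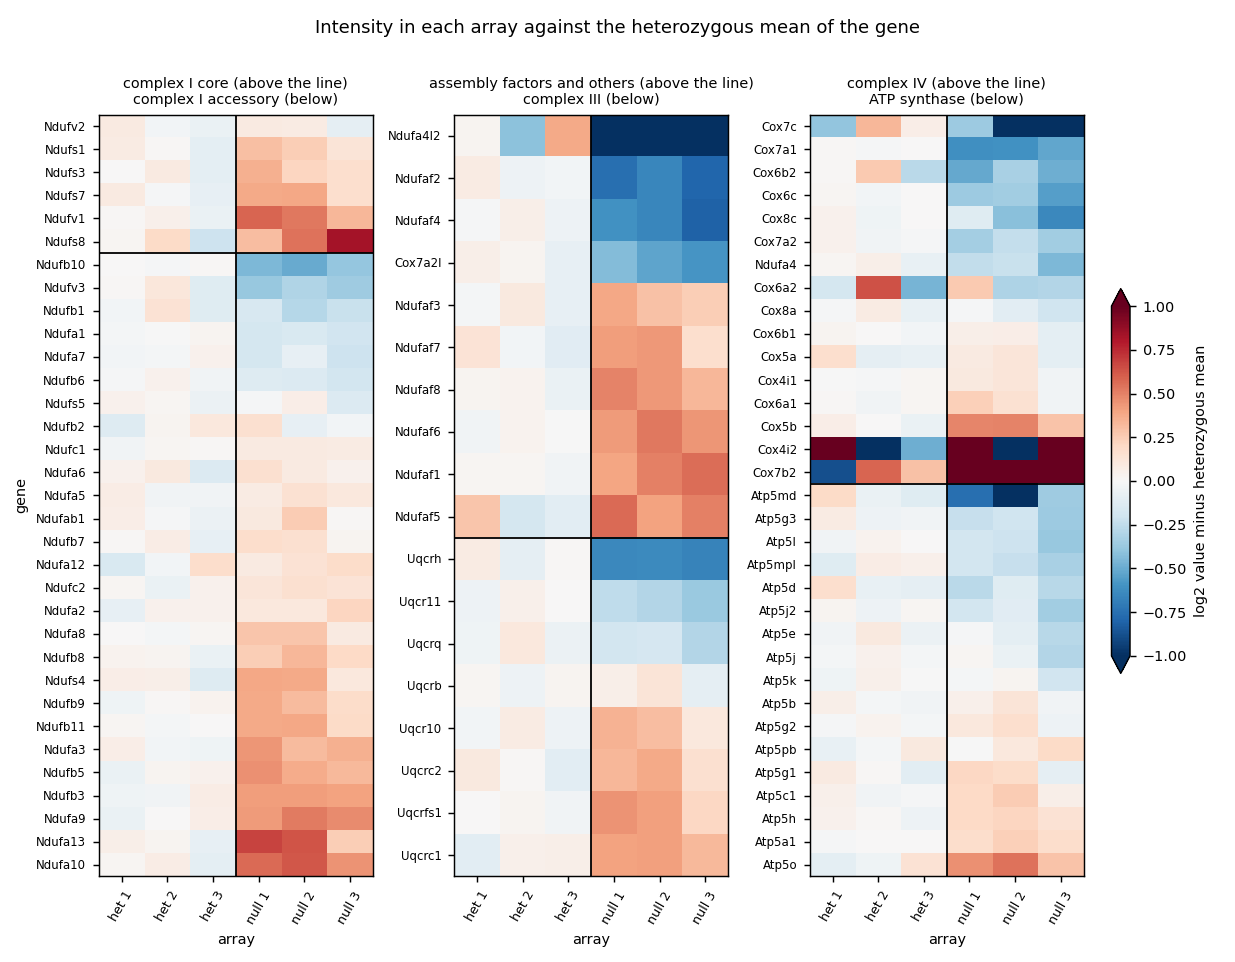
Log2 intensity of each of the 84 tested genes in each array, minus the mean of the 3 heterozygous arrays, from blue (lower) to red (higher) and cut at 1 in both directions; genes are ordered within each group by their log2 difference. The third null array lies below the mean of its line in most genes.

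Complex I assembly factors are not part of the finished enzyme. Of 8 tested, 6 rose and 2 fell, with a median log2 difference of 0.38, and centring the arrays on their medians gave the same counts. Without probe sets that share sequence 3 rose and 2 fell of 6, with a median of 0.17, and the other probe set of Ndufaf8 had a log2 difference of 0.029. Ndufaf1, which belongs to the assembly intermediate that builds the membrane arm, read 1167, 1165 and 1122 units in the heterozygous arrays and 1512, 1630 and 1691 in the null arrays. No arrays overlapped (1151 ± 25.5 against 1611 ± 91.2, 1.40-fold, log2 difference 0.48, limma adjusted p = 0.00029). Ndufaf5, a hydroxylase that modifies Ndufs7, rose by 0.49 on the log2 scale (552 ± 95.9 to 769 ± 45.2 units, adjusted p = 0.00621). Ndufaf6, Ndufaf8, Ndufaf7 and Ndufaf3 rose by log2 differences of 0.47, 0.42, 0.34 and 0.31.

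Ndufaf2 and Ndufaf4 were the assembly factors that fell. Ndufaf2, which binds late intermediates of complex I, read 1501, 1361 and 1384 units against 836, 898 and 816. The null arrays were all below the heterozygous ones, with a mean 1.66-fold lower (1415 ± 74.7 to 850 ± 42.4, log2 difference -0.74, adjusted p = 2.24e-05). Ndufaf4, which works together with Ndufaf3, read 2326, 2441 and 2265 units against 1538, 1493 and 1338. It was 1.61-fold lower without overlap (2344 ± 89.4 to 1456 ± 105, log2 difference -0.69, 95% interval -0.86 to -0.52, adjusted p = 2.42e-05), and its other probe set gave -0.90.

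Cox7a2l and Ndufa4l2 both fell. Cox7a2l, also called SCAF1, links complexes III and IV in supercomplexes and read 5617, 5498 and 5120 units against 4004, 3762 and 3599. The groups did not overlap, and its 3 probe sets had log2 differences of -0.51, -0.43 and -0.38, the first of them being the probe set that stands for the gene (adjusted p = 7.84e-05). Ndufa4l2, a relative of Ndufa4 best known as a gene switched on in low oxygen, read 105, 77.9 and 135 units in the heterozygous arrays and 13.0, 10.6 and 9.66 in the null arrays. All null values were below the 32 units of the filter, so the fold was taken with values under 32 raised to 32, and Ndufa4l2 was at least 3.23-fold lower. It passed the filter only through the heterozygous arrays, so it had to differ, and its test supports nothing.

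Complex III takes electrons from coenzyme Q, and of its 8 subunits 4 rose and 3 fell. The core proteins and the Rieske protein all rose, 3 of 3, with a median log2 difference of 0.36, while of 5 small subunits 1 rose and 3 fell, with a median of -0.21. That 1 rise was lost without heterozygous replicate 3, null replicate 1 or null replicate 2. Uqcrfs1, the Rieske iron-sulfur protein, read 6979, 7084 and 6790 units in the heterozygous arrays and 9473, 9241 and 8033 in the null arrays. The groups did not overlap (6951 ± 149 against 8916 ± 773, log2 difference 0.36, limma adjusted p = 0.00153). Uqcrc1 and Uqcrc2, the core proteins, rose by log2 differences of 0.38 and 0.29.

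Uqcrh, the hinge protein that helps cytochrome c dock, read 12985, 11557 and 12359 units against 7855, 7889 and 7718. The null arrays were nearly equal and far below the others (12300 ± 716 to 7820 ± 90.7, 1.57-fold lower, log2 difference -0.65, adjusted p = 6.37e-06), and its other probe set gave -0.72. The small subunits Uqcr11 and Uqcrq fell, with log2 differences of -0.30 and -0.21. Uqcr10, another small subunit, rose by a log2 difference of 0.25 (adjusted p = 0.0145). Both Uqcr10 and Uqcrq passed the test in 12 of 18 other settings and have dimmer probe sets of the opposite sign that did not pass it. Uqcrb, which contributes to the quinone site, was at 29296 ± 832 and 29988 ± 2302 units, a log2 difference of 0.03 (95% interval -0.11 to 0.18). With the arrays centred on their medians the 5 small subunits gave 2 rises and 1 fall.

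Complex IV, cytochrome c oxidase, passes electrons to oxygen. Of its 10 common subunits 1 rose and 4 fell, against 24.5% of all tested genes that rose and 24.3% that fell. Cox5b, a zinc-binding subunit of the matrix side, read 18145, 17426 and 16572 units in the heterozygous arrays and 24412, 24431 and 21176 in the null arrays. All null arrays were above the others (17381 ± 787 to 23340 ± 1874, log2 difference 0.42, limma adjusted p = 0.000406). The 3 other bright probe sets of Cox5b gave 0.61, 0.48 and 0.53, and a dim probe set, at 86.4 and 82.2 units on average, gave -0.13.

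Cox6c, a subunit that spans the membrane, read 16222, 15704 and 15990 units against 12400, 12566 and 10898. The null arrays were the lower ones without overlap (15972 ± 259 to 11955 ± 919, 1.34-fold lower, log2 difference -0.42, adjusted p = 0.000286). Cox7a2, the common form of subunit 7a, fell from 21671 ± 604 to 17504 ± 762 units (log2 difference -0.31). Ndufa4, once counted in complex I and now placed in complex IV, fell from 7773 ± 365 to 6304 ± 530 units (log2 difference -0.30). For Cox4i1, which with Cox5a is a regulated subunit next to the catalytic core, the log2 difference was 0.06, with a 95% interval from -0.07 to 0.19. The differences of Cox5a, Cox6a1, Cox6b1 and Cox8a were 0.04, 0.12, 0.01 and -0.10, none of which passed the test.

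Cox7c, a small subunit that spans the membrane, was read by a dim probe set, at 121, 200 and 167 units against 124, 65.6 and 47.3. The first null array lay above the first heterozygous array, so the groups overlapped. The mean was 162 ± 39.8 against 78.8 ± 39.9 units, a log2 difference of -1.13 with a 95% interval from -1.88 to -0.38 (adjusted p = 0.0176). The adjusted p was 0.0793 without the second heterozygous array, 0.0519 without the third, 0.050 without the second null array and 0.0552 without the third.

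The forms of complex IV subunits best known from particular tissues were mostly dim, and 1 of 6 tested rose and 2 fell. Over all tested genes the shares were 24.5% and 24.3%. Cox7b2, the form of subunit 7b known from testis, read 27.9, 76.9 and 62.7 units in the heterozygous arrays and 168, 169 and 169 in the null arrays. The null arrays were nearly equal and far above the others. Cox7b2 was 3.15-fold higher with values under 32 raised to 32 (55.8 ± 25.2 against 169 ± 0.815 units as measured, log2 difference 1.72). The first heterozygous array was under 32 units, so Cox7b2 passed the filter only with the help of the null arrays, where it is high. Nothing is read from its test.

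Cox7a1, the heart and muscle form of subunit 7a, read 455, 449 and 454 units against 296, 297 and 316. It fell 1.49-fold without overlap (452 ± 3.33 to 303 ± 11, log2 difference -0.58, adjusted p = 0.000843), as its common partner Cox7a2 fell too. Cox6b2, known from testis, read 1225, 1456 and 1009 units against 854, 971 and 868, all null arrays being the lower (1230 ± 224 to 898 ± 63.7, log2 difference -0.44, adjusted p = 0.0115). Its common partner Cox6b1 had a 95% interval from -0.13 to 0.14 around 0.01.

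Cox8c, known from testis, went from 155 ± 4.86 to 119 ± 21.8 units (log2 difference -0.40, adjusted p = 0.121), and the muscle form Cox6a2 from 50.2 ± 20.9 to 44.8 ± 10.6 units (-0.11, adjusted p = 0.86). Cox4i2, the lung form known to respond to low oxygen, read 48.9, 5.29 and 9.68 units against 51.0, 5.14 and 39.3. These arrays were spread as widely within a line as between the lines. Cox8b, a heart and muscle form, did not pass the filter, at 4.44, 3.68 and 4.05 units against 2.05, 25.7 and 34.2.

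**Figure D4:**
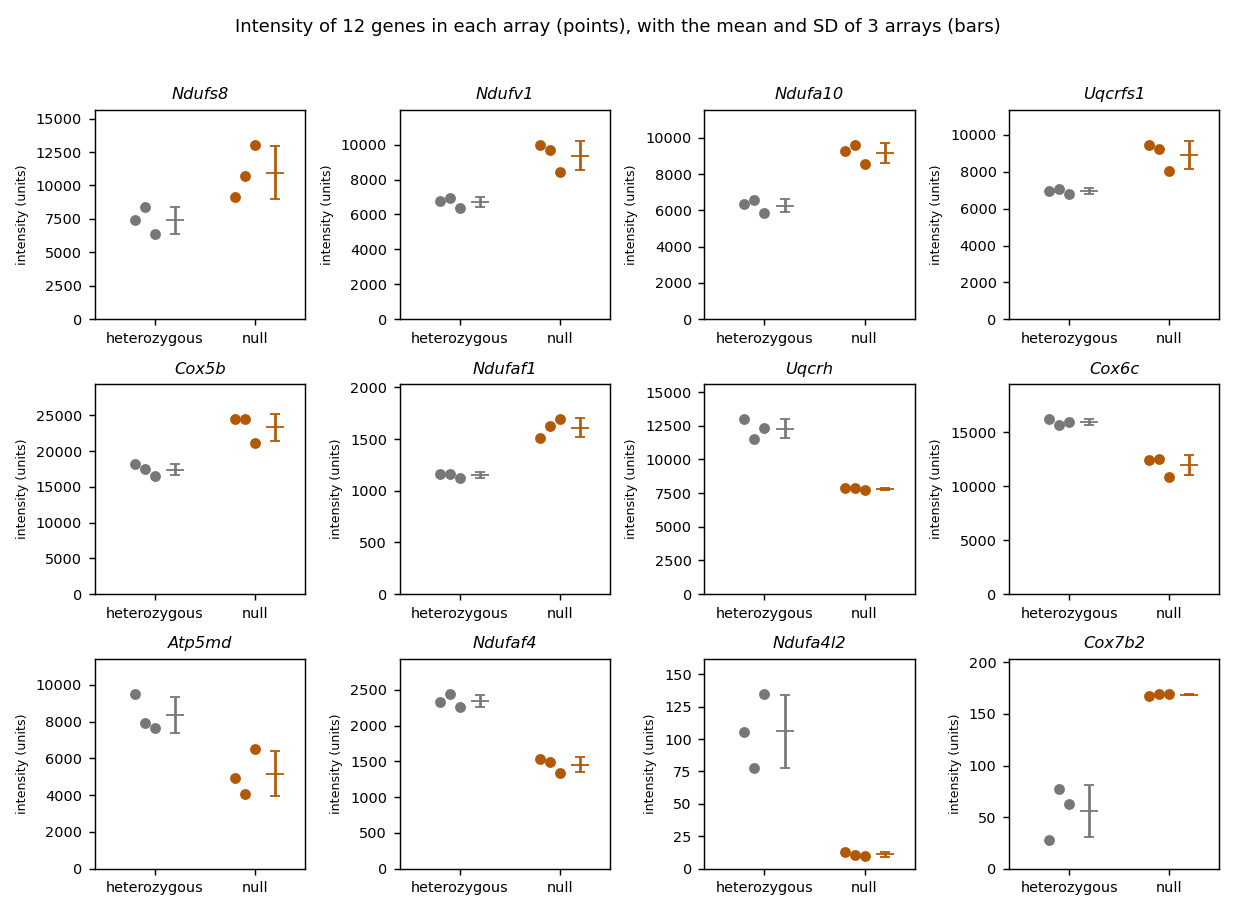
Intensity (y axis, linear units from 0) of 12 genes in each array, as points in the order of the replicate numbers, with the mean and SD of the 3 arrays of a line beside them. In all 12 panels the arrays of the lines do not overlap, but the genes were picked from those that rose or fell, so this is no separate result. Of all tested genes 57.2% do not overlap, and of the 84 genes 72.6%. Ndufa4l2 passed the filter only through the heterozygous arrays, and Cox7b2 only with the help of the null arrays.

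In the ATP synthase, 4 of 17 genes rose (23.5%) and 6 fell (35.3%), with a median log2 difference of -0.06. Of all tested genes 24.5% rose and 24.3% fell, so the share that rose was near that of all genes. The rises came to 2 without heterozygous replicate 2 or 3 or null replicate 1 or 2, and to 6 without null replicate 3. The 4 rises lay in the catalytic head and the peripheral stalk, and the falls mostly among small subunits within the membrane. Atp5o, the subunit that ties the peripheral stalk to the head, read 11597, 12040 and 13764 units in the heterozygous arrays and 17110, 18093 and 15135 in the null arrays. The groups did not overlap (12467 ± 1145 to 16779 ± 1507, 1.35-fold, log2 difference 0.43, limma adjusted p = 0.00122). Atp5h, of the same stalk, rose by 0.19, and Atp5pb and Atp5j, the other stalk subunits, had log2 differences of 0.10 and -0.12 that did not pass the test.

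Of the head and central stalk, Atp5a1, the alpha subunit, rose from 17207 ± 85.1 to 19734 ± 535 units (log2 difference 0.20, adjusted p = 0.0096). Atp5b, the catalytic beta subunit, had a log2 difference of 0.05 with a 95% interval from -0.09 to 0.18. Atp5c1, the gamma subunit that turns inside the head, rose by 0.17 (adjusted p = 0.0455), a call kept in 8 of 18 other settings and with its sign turned in 2 of them. Its dim other probe set passed the filter only with the help of the heterozygous arrays, where it is high, so nothing is read from the sign of that probe set. Atp5d, the delta subunit, fell by 0.22 on the log2 scale. Atp5e, the epsilon subunit, had a difference of -0.13 (adjusted p = 0.193).

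The ring that turns in the membrane is made of subunit c, for which the genome has 3 genes that encode the same mature protein. Atp5g3 fell from 21211 ± 1080 to 17647 ± 1022 units (log2 difference -0.27, adjusted p = 0.00516), while Atp5g1 and Atp5g2 had differences of 0.10 and 0.08 that did not pass the test. Centred on array medians, 2 of the 3 rose and none fell.

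Of 5 other membrane subunits 4 fell and none rose, with a median log2 difference of -0.24, and 2 fell without heterozygous replicate 3. Atp5md, a small subunit also called DAPIT that is linked to dimers of the enzyme, read 9492, 7916 and 7641 units against 4918, 4078 and 6492. All null arrays were below the heterozygous ones, the third least so, and Atp5md was 1.64-fold lower (8350 ± 999 to 5163 ± 1226, -0.71 on the log2 scale, 95% interval -1.03 to -0.40, adjusted p = 0.00149). Atp5l, Atp5mpl and Atp5j2 fell, with log2 differences of -0.26, -0.24 and -0.22, and Atp5k had a difference of -0.06 (95% interval -0.21 to 0.09). With the arrays centred on their medians only Atp5md passed as lower among these 5. In that setting the whole ATP synthase had 8 rises and 1 fall with a median of 0.09, and complex IV 4 rises and 3 falls with a median of 0.05, so both medians changed sign.

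Probe sets of the same gene were a further check on direction. Of the 86 genes, 45 had more than 1 tested probe set, and in 30 of these all had the same sign. No gene had probe sets past the test in both directions. Probe sets that can share sequence with other transcripts, of the same gene or of another, were also left out (names ending in _x_at, _s_at or _a_at). Then 65 of the genes were still tested, of which 19 rose and 16 fell, with a median of -0.01. For some of them a dim probe set then stood for the gene, as for Atp5c1 and Ndufb8, with log2 differences of -1.75 and -1.78. Both probe sets passed the filter only with the help of the heterozygous arrays, where they are high, so nothing is read from their sign. A further 10 probe sets annotated to several genes, at least 1 of them with such a symbol, were not used.

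The arrays of a line were not alike over the chain. The third null array was above the mean of its line in 15.5% of the 84 genes, against 72.6% and 77.4% for the first and second, and its median deviation was -0.08 on the log2 scale. In the heterozygous line the shares were 60.7%, 58.3% and 38.1%. Without the third null array 37 genes rose and 19 fell. Its part in the single results beyond that was not tested.

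Position in the genome went with direction for some genes. The 4 respiratory chain genes on chromosome 1, which are Ndufs1, Ndufa10, Ndufb3 and Cox5b, all rose, with a median log2 difference of 0.42. Over all 726 tested genes of that chromosome the median was 0.31, with 333 rises and 65 falls. On chromosome 11 the respective median was 0.29 over 1097 genes, with 447 rises and 117 falls, and of 5 respiratory chain genes there 3 rose (Ndufaf8, Uqcr10 and Atp5h) and 1 fell (Uqcrq). Over the 75 tested genes on neither chromosome 25 rose and 22 fell, with a median of 0.06, against a median of -0.06 over all 11104 tested genes outside these chromosomes. The copy number of these chromosomes was not measured, and its part was not tested.

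Promoters were read from RefSeq (GRCm38.p6) for the 71 of the 86 genes that have an entry, over the 250 bases before the start and on both strands. The genes shown have the largest rises and falls among those with an entry, together with the 1 changed gene that holds the full motif of NRF1, a factor known for driving respiratory chain genes. Each is printed 5′ to 3′ along the gene's strand, and capitals mark the NRF1 motif (GCATGCGC as the short form, preceded by GC in the full form), the ETS motif CCGGAAG, the GC box GGGCGG and the CCAAT box, on either strand.
Cox7b2, chr5:71548206-71548455, minus strand: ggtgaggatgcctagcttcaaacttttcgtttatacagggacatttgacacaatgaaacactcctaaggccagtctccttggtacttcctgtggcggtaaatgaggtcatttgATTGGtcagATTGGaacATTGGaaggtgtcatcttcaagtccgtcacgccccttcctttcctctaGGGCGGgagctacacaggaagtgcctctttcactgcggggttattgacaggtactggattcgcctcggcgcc
Ndufs8, chr19:3912775-3913024, minus strand: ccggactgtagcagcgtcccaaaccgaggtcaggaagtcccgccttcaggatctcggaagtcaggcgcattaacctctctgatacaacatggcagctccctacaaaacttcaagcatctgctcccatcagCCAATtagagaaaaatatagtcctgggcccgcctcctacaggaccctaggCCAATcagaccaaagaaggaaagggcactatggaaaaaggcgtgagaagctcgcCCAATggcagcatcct
Cox7c, chr13:86046796-86047045, minus strand: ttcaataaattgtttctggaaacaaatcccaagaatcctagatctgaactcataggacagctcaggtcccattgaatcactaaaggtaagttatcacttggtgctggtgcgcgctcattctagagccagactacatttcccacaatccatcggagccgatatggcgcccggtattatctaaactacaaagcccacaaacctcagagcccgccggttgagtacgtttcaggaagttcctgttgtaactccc
Ndufaf2, chr13:108158626-108158875, minus strand: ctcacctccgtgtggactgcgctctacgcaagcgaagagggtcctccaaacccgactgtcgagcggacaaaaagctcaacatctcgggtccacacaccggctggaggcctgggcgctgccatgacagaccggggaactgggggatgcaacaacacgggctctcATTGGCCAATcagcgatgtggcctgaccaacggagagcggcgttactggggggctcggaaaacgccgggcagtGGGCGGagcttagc
Ndufaf4, chr4:24897833-24898082, plus strand: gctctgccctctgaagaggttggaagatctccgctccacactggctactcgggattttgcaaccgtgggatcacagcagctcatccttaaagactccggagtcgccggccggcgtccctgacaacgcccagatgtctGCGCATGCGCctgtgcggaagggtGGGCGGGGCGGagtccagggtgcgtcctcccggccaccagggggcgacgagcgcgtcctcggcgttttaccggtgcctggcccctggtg
The promoter of Cox7b2 has 3 CCAAT boxes, all on the other strand, and a GC box, and that of Ndufs8 has 3 CCAAT boxes. Ndufaf2 has a CCAAT box on each strand, 1 directly after the other, and a GC box. Ndufaf4 has the NRF1 motif from base -113 to base -104 before the start and a pair of overlapping GC boxes, and in Cox7c none of these letters occur.

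The full NRF1 motif was in 4 of the 71 promoters (5.63%) and in 0.877% of the promoters of all 27025 genes. The short form was in 9.86% against 2.56%, the ETS motif in 18.3% against 7.83%, the GC box in 42.3% against 35.4% and the CCAAT box in 42.3% against 37.5%. The YY1 motif ATGGCGGC was in 1.41% against 1.19%, and TATAAA in 9.86% against 14.3%. The median number of CpG dinucleotides was 15 in these promoters and 6 in all. Of the 27 that rose none held the full NRF1 motif, of the 19 that fell 1 did, and of the 23 tested without a call 3 did. The ETS motif was in 4, 3 and 6 of these, and the GC box in 10, 8 and 11.

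Other genes of the pathway, outside the symbols used, were also read. Complex II, succinate dehydrogenase, had 3 rises and 1 fall among its 4 genes. Sdhc, a membrane anchor, rose from 4755 ± 32.4 to 8221 ± 119 units (log2 difference 0.79, limma adjusted p = 7.67e-07) and lies on chromosome 1. Sdhb and Sdha, the iron-sulfur and flavin subunits, rose by log2 differences of 0.49 and 0.38, and Sdhd, the other anchor, fell by 0.38. Cyc1, the cytochrome of complex III, rose by 0.31 (adjusted p = 0.00252), and Cycs, the cytochrome c of somatic cells, had a difference of -0.09. Cyct, the cytochrome c of testis, read 135 ± 16.6 units in the heterozygous line and 41.8 ± 20.4 in the null line. That is 3.27-fold lower with values under 32 raised to 32. The first null array was under 32 units, so Cyct passed the filter only with the help of the heterozygous arrays, where it is high. Nothing is read from its test.

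Of the genes in mitochondrial DNA only ND5, a core subunit of complex I, was matched on the array, 1 of 13. It rose from 15375 ± 1582 to 20720 ± 2296 units (log2 difference 0.43, adjusted p = 0.00237).

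Among 38 assembly factors of the chain outside the prefixes, 15 rose and 9 fell, 2 and 1 of them by at least 2-fold. Of all tested genes 24.5% rose and 24.3% fell, 7.23% and 6.2% by at least 2-fold, so the share that fell was near that of all genes. Dmac1, a factor for the far part of the complex I membrane arm, fell from 3570 ± 162 to 1306 ± 29.3 units (log2 difference -1.45, adjusted p = 4.88e-08). Sdhaf4, a chaperone of complex II that lies on chromosome 1, and Ttc19, which clears Rieske protein fragments from complex III and lies on chromosome 11, rose by 1.26 and 1.05 on the log2 scale.

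Among 20 tested regulators of mitochondrial biogenesis 3 rose and 7 fell, with a median log2 difference of -0.16, and with the arrays centred on their medians 4 rose and 4 fell. Before centring, 24.5% of all tested genes rose and 24.3% fell. Tfam, which packs mitochondrial DNA, fell from 2980 ± 350 to 1542 ± 175 units (log2 difference -0.95, adjusted p = 1.75e-05), and Polrmt, the mitochondrial RNA polymerase, fell by 0.60. Ppargc1b, a coactivator, rose from 147 ± 39.5 to 324 ± 29.9 units (log2 difference 1.17, adjusted p = 0.000578), and Tfb2m, the mitochondrial transcription factor, from 678 ± 93.8 to 1322 ± 62.4 (0.97), the latter on chromosome 1. Nrf1 and Gabpa, whose proteins bind the NRF1 and ETS motifs, had log2 differences of -0.15 each that did not pass the test (adjusted p = 0.139 and 0.271).

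Markers of other cell types moved in both directions, beside 24.5% of all tested genes that rose and 24.3% that fell. Summed over 8 primitive endoderm markers, the intensity was 1266 to 1842 units in the heterozygous arrays and 490 to 564 in the null arrays, with no rise and 4 falls among 8 tested. Over 7 trophectoderm markers it was 11067 to 12358 against 5913 to 6412, with 4 falls among 6 tested, most of it from Krt8 and Krt18. Tfap2c, also among them, was at 1194 ± 249.7 and 1234 ± 325 units (adjusted p = 0.886), and Elf5 stayed below 32 units in all arrays. The 8 fibroblast markers summed to 432 to 504 against 437 to 568 (1 rise, 3 falls, 6 tested), with a median log2 difference of -0.83 over those tested. The rise was that of Dcn, decorin, from 31.0 ± 23.8 to 263 ± 56.6 units, 6.61-fold with values under 32 raised to 32. Its heterozygous mean is under the 32 units of the filter, so Dcn passed only with the help of the null arrays, where it is high. Nothing is read from its test. Postn was at 3.98 and 3.27 units on average. The 7 muscle and heart markers summed to 566 to 659 against 479 to 590 (2 rises, 2 falls, 6 tested), with a median log2 difference of 0.006 over those tested. In bulk RNA, fewer cells of a type and less RNA per cell cannot be told apart, and the part of such cells in the results above was not tested.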

How the data were processed

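Total RNA of 6 samples, labelled as cRNA by in vitro transcription, was read on Affymetrix arrays, per the labels' protocols. The authors deposited linear intensities, and every array's mean is 500 units after trimming 2% at each end. The submitters' processing notes name GCRMA without its role, and the step it was used in is not given in the sources used here. Such scaling leaves differences in the shape of an array's distribution in place, which is why other scalings were tried. Probes that saturate would understate differences, and probes that cross-hybridise could distort them in either direction. Neither was tested.

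Intensities were turned into log2. Of the probe sets, 34945 had 1 gene symbol in the platform annotation, 932 several and 9160 none, and 64 were controls; only the first were used, and no symbol changed when updated. Each gene was represented by its probe set with the highest mean, and genes reaching 32 units in at least 3 of 6 arrays entered a two-sided limma fit (version 3.58.1 under R 4.3.3; eBayes with an intensity trend; Benjamini-Hochberg over all 12927 genes). Folds are ratios of geometric mean intensity, taken from the difference of mean log2 values, so they can differ from the ratio of the printed means. Chromosomes and promoters came from RefSeq. The fit was checked on simulated data with known changes, with noise drawn from its own variance prior. An adjusted p under 0.05 was reached by 22% of changes of log2 size 0.3, 50% of size 0.5, 68% of size 1 and 94% of size 2. A gene that did not pass the test can therefore not be taken as unchanged. The number of arrays limits the precision. Alternatives covered the filter, variance prior, scaling, probe set choice, array weights, replicate block, size threshold and each array left out.

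Members and gene lists were chosen with earlier results of these data known. Genes were described with values where they passed the test with at least 2-fold, had the largest changes or highest intensity of their group, were tissue-restricted forms or their partners, or did not pass the filter; other genes that are named were added after their values were seen.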

Additional observations from a re-analysis of the deposited data

How the results depend on the processing

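As reported, 32 genes rose and 23 fell. Falls came to 14 without an intensity trend in the variance prior and 10 with arrays centred on their medians, and rises to 19 without probe sets that share sequence. Leaving out each array in turn gave 24 to 37 rises and 16 to 21 falls. The count of genes lower by at least 2-fold was 2; a log2 filter of 7 gave 0, and it was 1 without the trend, with centred arrays or without probe sets that share sequence, and 0 to 2 with an array left out (0 without heterozygous replicate 2 or 3). At a log2 size of 0.5 it was 8, with 4 higher, and 4130 of all genes passed. The median log2 difference, 0.10, was 0.25 with centred arrays, 0.050 as a mean over probe sets, -0.011 without probe sets that share sequence, 0.060 without the genes of chromosomes 1 and 11 (a setting chosen after seeing the data), and 0.062 to 0.11 with an array left out. The causes were not tested. Of the 84 genes, 25 turned sign in some setting, 7 of them genes that rose or fell. Atp5c1, Ndufb8 and Ndufs4 are among the 7, each with a dim probe set that passed the filter only with the help of the heterozygous arrays.

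Signs turned for some genes. Without probe sets that share sequence, Ndufs7 was at -0.016, Cox5b at -0.13 and Cox6b1 at -0.075. As a mean over probe sets Ndufab1 was at -1.24, Cox6b1 at -0.033 and Atp5g2 at -0.78. The means of Ndufab1 and Atp5g2 each take in a dim probe set that passed the filter only with the help of the heterozygous arrays. Centred arrays gave 0.044 for Cox6a2 and 0.050 for Cox8a, quantile normalization 0.046 for Cox6a2 and -0.013 for Cox6b1, and cyclic loess 0.038 for Cox6a2. With an array left out, Ndufv2 ranged from -0.0064 to 0.087, Uqcrb from -0.018 to 0.092, Cox4i2 from -0.00054 to 1.72, Cox6a2 from -0.34 to 0.21 and Cox6b1 from -0.018 to 0.063.

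The replicate block (the replicate number in the model) gave 33 rises and 24 falls among the 84 genes, 6818 of all genes at an adjusted p under 0.05 against 6305, and 1746 with at least 2-fold against 1736. Arrays of the same number correlated in their deviations by 0.033, 0.028 and 0.076, and arrays of different numbers by -0.045 to 0.010. These values are small, although each array correlated best with its own number. Whether the numbers stand for pairs or a shared batch was not tested. Cox4i2 and Cox6a2 read 5.14 to 51.0 and 34.5 to 74.0 units, around the 32 units of the filter.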

Other observations

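Further groups of mitochondrial genes moved in both directions, as did all tested genes, of which 24.5% rose and 24.3% fell. With the arrays centred on their medians, 4187 of all genes rose and 2099 fell. Of 76 genes of the mitochondrial ribosome, which makes the subunits encoded in mitochondrial DNA, 22 rose and 26 fell, with a median log2 difference of 0.02, and with the arrays centred on their medians 35 rose and 13 fell. Mrpl34 fell by 1.37 on the log2 scale, and Mrpl38 and Mrpl14 rose by 1.15 and 1.07, Mrpl38 being a gene of chromosome 11. Of 26 tested genes of protein import, 5 rose and 8 fell, and 8 rose and 6 fell with centred arrays. Timm9 and Timm8a1, small chaperones of the intermembrane space, and Timm21, which hands presequence proteins to the inner membrane, fell, with log2 differences of -1.71, -1.004 and -0.83. Of 9 tested carriers of nucleotides, phosphate and protons and channels of the outer membrane, Vdac3 rose by 0.49, Slc25a4 fell by 0.39, and the other 7 did not pass the test; rises came to 3 with centred arrays and to 2 with quantile normalization or cyclic loess. The limma calls of Mrpl34, Mrpl38, Mrpl14, Timm9, Timm8a1, Timm21, Vdac3 and Slc25a4 held with the same sign in all alternatives that kept them (17 or 18 of 18).

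Across the tested respiratory chain genes, the log2 difference and the genomic length of the gene had a Spearman correlation of 0.22 over 84 genes, against 0.13 over all 12908 genes with a length. These are descriptions across genes, which are not independent replicates.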
